A study of Homo sapiens with 3 samples.

Results

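ZNF genes encode zinc finger proteins, and those measured here are 169 probe sets for 140 genes in RH30, a cell line of alveolar rhabdomyosarcoma, a childhood soft tissue tumour of muscle-like cells. A member is a probe set that names a single gene, whose symbol is ZNF followed by digits and at most 1 letter, and whose mean signal over the 3 arrays is at or above 117. Of the 22277 probe sets on the array, 19064 name 1 gene, 300 of these name 1 of 231 ZNF genes, and 169 passed the minimum. The members were thus selected on their mean signal, which is given only to describe them. Chromosome 19 held 66 of the members, for 60 genes, and the other chromosomes 103, for 80 genes.

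There were 3 conditions with 1 array each, all read at 12 hours according to the labels. The first was untreated. The second had received 10 µM of a mutated peptide nucleic acid (PNA, a DNA analogue on a peptide-like backbone). The third had received 10 µM of the anti-MYCN PNA, which is directed against the MYCN gene. The untreated array is called so in its title and treatment text, whereas its source name says mutated PNA, so every direction between these 2 controls rests on that label. With 1 array per condition no value has a replicate error and no difference has a test, and the difference between the controls is the only measure of background. The number of arrays limits the precision. RH30 is a single line, and nothing in the labels says whether the cultures were grown independently. The 24 probe sets for bacterial poly-A spikes had a median of 0.382 of mutated PNA and 0.410 of untreated on the anti-MYCN PNA array, against 1.06 between the controls, and the median signal of all gene probe sets was 127 there, against 111 on the untreated and 112 on the mutated PNA array. The part of these in the differences below was not tested. Of 16 muscle and rhabdomyosarcoma markers on the array 10 passed the signal minimum, with MYOD1 at 6715, 6266 and 7834 in untreated, mutated PNA and anti-MYCN PNA cells, while MYF5, MYH3 and MYH8 stayed at or below 32.9. None of 3 leukocyte markers and 1 each of 5 epithelial, 4 endothelial and 5 fibroblast markers passed: KRT18, ENG and COL3A1. Summed over the markers of a list, the anti-MYCN PNA array read 52229 for muscle, 598 for epithelium, 118 for leukocytes, 556 for endothelium and 615 for fibroblasts, against 38074, 800, 106, 218 and 523 in untreated cells and 41994, 526, 37.8, 228 and 636 in mutated PNA cells. The part of these in the ZNF differences was not tested. Wherever 3 signals of a gene are given together, they stand in the order untreated, mutated PNA, anti-MYCN PNA.

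Most ZNF proteins carry tandem fingers in which pairs of cysteines and histidines hold a zinc ion, and each finger contacts a few bases of DNA. Many also have a KRAB domain, which recruits the corepressor TRIM28, the histone methyltransferase SETDB1 and heterochromatin proteins. KRAB zinc finger genes arose by repeated tandem duplication, lie in clusters with the densest on chromosome 19, and are known for silencing transposable elements. They are transcribed at low levels, and their near-identical finger sequences make it hard to keep related genes apart on an array.

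ZNF85 and ZNF43, of a cluster on chromosome 19, and ZNF267, on chromosome 16, are shown because their promoters share the stretch GGGCGGCTTCCGGGAT shortly before the annotated start of the gene, and because all 3 were among the 12 probe sets furthest below both controls. The stretch is the longest that these 3 windows have in common. The windows run from 250 bases before to 50 after the gene's start, 5′ to 3′ on the gene's own strand, from RefSeq on GRCh38.p14. They lie at chr19:20923001-20923300 on the plus strand, chr19:21836133-21836432 on the minus strand and chr16:31873557-31873856 on the plus strand. Capitals mark the shared stretch.
ZNF85: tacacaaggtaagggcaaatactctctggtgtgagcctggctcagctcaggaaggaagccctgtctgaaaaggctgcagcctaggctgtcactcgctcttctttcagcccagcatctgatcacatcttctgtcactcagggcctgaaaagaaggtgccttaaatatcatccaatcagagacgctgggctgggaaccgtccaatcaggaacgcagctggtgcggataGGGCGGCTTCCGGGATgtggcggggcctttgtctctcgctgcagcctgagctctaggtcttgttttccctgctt
ZNF43: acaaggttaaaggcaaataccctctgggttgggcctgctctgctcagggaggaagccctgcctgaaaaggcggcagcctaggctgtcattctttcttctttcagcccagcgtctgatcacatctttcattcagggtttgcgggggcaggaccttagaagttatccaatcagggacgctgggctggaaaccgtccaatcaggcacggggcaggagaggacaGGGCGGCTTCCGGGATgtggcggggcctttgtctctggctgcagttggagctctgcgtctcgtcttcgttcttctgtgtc
ZNF267: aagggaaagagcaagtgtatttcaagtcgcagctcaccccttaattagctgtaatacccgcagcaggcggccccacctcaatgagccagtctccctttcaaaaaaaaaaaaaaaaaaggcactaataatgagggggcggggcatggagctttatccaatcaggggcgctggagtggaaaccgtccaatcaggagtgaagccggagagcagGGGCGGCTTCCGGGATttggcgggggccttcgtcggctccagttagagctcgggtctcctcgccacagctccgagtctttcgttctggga

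The stretch, searched on both strands, lies at bases 227 to 242 of the window in ZNF85, 221 to 236 in ZNF43 and 211 to 226 in ZNF267. It was chosen after the values were seen, from the promoters of 3 low members, so their own low values are no result of it. Of the 27303 promoters that RefSeq gave here, 13 hold it (0.0476%), and 11 of those 13 belong to ZNF genes. Among the member genes with a sequence ZNF91 was the only further one. Its signal was 641 with anti-MYCN PNA, against 842 untreated and 791 with mutated PNA, and it lay below both controls by a smaller distance than the 3 genes that defined the stretch. ZNF43 and ZNF85 were read by _x_at probe sets, whose probes also match other transcripts, so their values need not be independent of each other. Of the ZNF genes with this stretch that fell short of the signal minimum, ZNF669 read 86.1, 98.9 and 161 and lay above both controls, and ZNF492 read 24.1, 10.2 and 37.7, near the floor. Genes with the stretch were thus not all low.

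On the anti-MYCN PNA array the chromosome 19 members lay slightly below the controls, while the other genes of chromosome 19 lay well above them. The 66 chromosome 19 members had a median log2 difference of −0.15 to mutated PNA, with quartiles of −0.51 and 0.15. To untreated the median was −0.10, with quartiles of −0.47 and 0.20. The 325 other probe sets of chromosome 19 with a signal like theirs, from 132 to 685 (the 5th to 95th percentile of the chromosome 19 members), had medians of 0.48 and 0.45. The gap between the 2 kinds of gene on this chromosome was therefore −0.63 against mutated PNA and −0.55 against untreated. In mutated PNA against untreated it was 0.04, with medians of 0.01 and −0.03. The comparisons of anti-MYCN PNA with the 2 controls share the anti-MYCN PNA array.

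**Figure D1:**
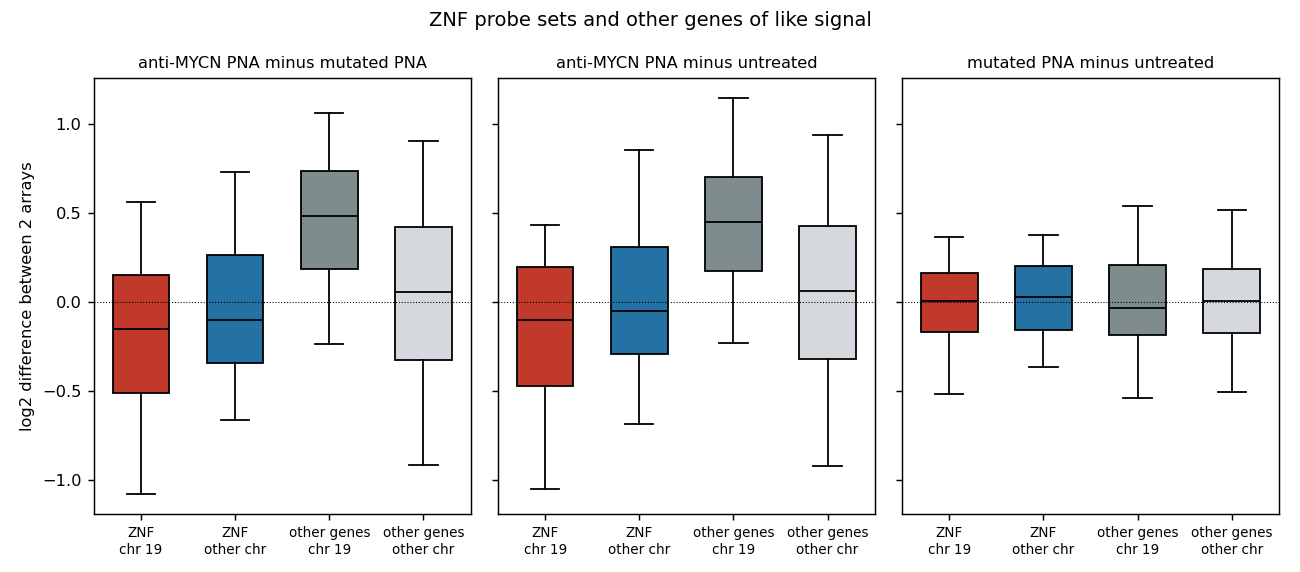
Box plots of the log2 difference between each pair of arrays for ZNF probe sets of chromosome 19 (66) and of other chromosomes (103), and for other genes of like signal on chromosome 19 (325) and elsewhere (5052). Lines are medians, boxes quartiles and whiskers the 5th to 95th percentile over probe sets, which are not replicates; the other genes of chromosome 19 sit at medians of 0.48 and 0.45 against the 2 controls, and all 4 groups sit near 0 between the controls.

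ZNF genes of other chromosomes were closer to those of chromosome 19 than either was to the other genes of chromosome 19. Their 103 probe sets had a median of −0.10 against mutated PNA and −0.05 against untreated, so the chromosome 19 members differed from them by −0.05 in both comparisons and by −0.02 between the controls. The 5052 other probe sets of other chromosomes in the same signal range had medians of 0.06 and 0.06. A total of 36 of the 66 chromosome 19 members (54.5%) lay below both controls by any amount, against 47 of 103 on other chromosomes (45.6%) and 3889 of 9899 1-gene probe sets at or above the minimum (39.3%). Above both controls were 18 chromosome 19 members (27.3%) and 38 of the others (36.9%), against 45.9% of all probe sets. Of the other genes of chromosome 19 with like signal, 8.31% lay below and 80.3% above both controls. Between the controls, 33 of 66 chromosome 19 members were lower in mutated PNA and 33 higher, against 50.6% lower over all probe sets.

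The chromosome 19 gap was present at each signal level that held more than 2 members. Among probe sets with a mean signal of 200 to 400, 35 chromosome 19 members had a median of −0.21 against mutated PNA and 157 other probe sets of that chromosome 0.48. From 400 to 800 the medians were −0.17 over 15 and 0.40 over 107, and below 200 they were 0.05 over 14 and 0.52 over 92. The difference of the members alone was smaller than the gap and depended on the kind of probe set. Without _x_at and _s_at probe sets, 33 chromosome 19 members had a median of −0.02 against mutated PNA and −0.02 against untreated, with 15 below and 12 above both controls. Over all genes, 4560 probe sets were of that kind, 1866 of them below and 2038 above both controls. The 15 chromosome 19 members read by _x_at probe sets had a median of −0.27 and the 18 read by _s_at probe sets −0.32 against mutated PNA. Without these suffixes the gap between chromosome 19 members and members elsewhere turned from −0.05 to 0.07 against mutated PNA, and the median of members elsewhere against untreated turned from −0.05 to 0.04. Other chromosome 19 genes of like signal stood at 0.51 without those suffixes, 0.62 for _x_at and 0.43 for _s_at probe sets.

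Other genes differed between chromosomes too, and chromosome 19 was the highest. Over genes that are not ZNF, the median of anti-MYCN PNA minus mutated PNA on the log2 scale was 0.38 on chromosome 19, the highest of 23 chromosomes. Chromosomes 22, 17, 16 and 20 followed at 0.27, 0.22, 0.21 and 0.17, and chromosomes 13 and 4 were lowest at −0.20 and −0.17. Against untreated, chromosome 19 was again highest at 0.34 and chromosome 13 lowest at −0.21, whereas between the controls chromosome 19 stood at −0.01 and ranked 11 of 23. On 15 of the 18 chromosomes with at least 3 member probe sets the ZNF median lay below that of the chromosome's other genes against mutated PNA, on 14 against untreated, and on 7 between the controls. Chromosome 16 came second in members, with 14 probe sets, and there the ZNF median of 0.17 was near the 0.21 of its other genes. Chromosome 7 had 11, with a ZNF median of −0.27 to mutated PNA, beside 0.01 for its other genes. To untreated these medians were −0.05 and 0.03, and between the controls 0.21 and 0.01.

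**Figure D2:**
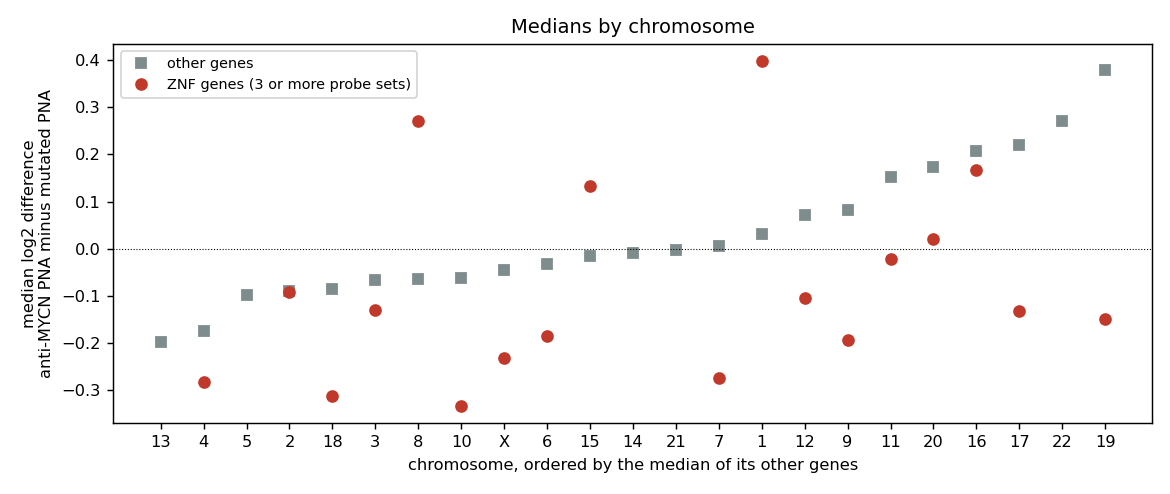
Median log2 of anti-MYCN PNA minus mutated PNA by chromosome for genes that are not ZNF (squares, all 23 chromosomes) and for ZNF probe sets (circles, chromosomes with 3 or more). The squares run from −0.20 on chromosome 13 to 0.38 on chromosome 19, where the circle stands at −0.15.

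Most chromosome 19 members, low or high, lay in zinc finger clusters. Taking runs of at least 5 zinc finger genes with at most 3 other protein-coding genes between neighbours, a rule set after the values were seen, 10 clusters held 57 of the 66 members (86.4%), with a median of −0.21 against mutated PNA and −0.16 against untreated. They held 33 of the 36 members below both controls (91.7%) and 13 of the 18 above (72.2%). The 9 outside the clusters had medians of 0.09 and 0.28, with 3 below and 5 above. Each member was also set beside up to 5 measured genes other than ZNF on either side of it in gene order, with fewer near a chromosome end. The median of these neighbours was above 0 for 65 of 66 chromosome 19 members against mutated PNA, and 55 of 66 members (83.3%) lay below it. Members of a cluster mostly share the same neighbours, so these are not 66 separate comparisons, and they restate the gap given above. On other chromosomes 60 of 101 members (59.4%) lay below their neighbours. Between the controls 30 of 66 did on chromosome 19.

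**Figure D3:**
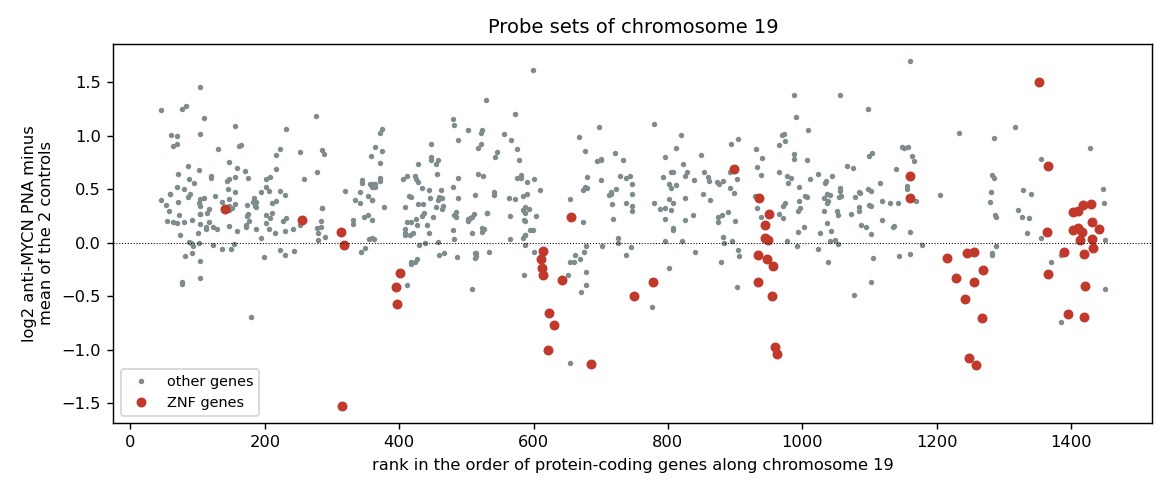
Log2 signal with anti-MYCN PNA minus the average of both control arrays, for every chromosome 19 probe set, against the rank of its gene in the order of protein-coding genes along the chromosome. Other genes (small points) lie mostly above 0 along its whole length, and ZNF genes (large points) form columns, the clusters, that lie mostly at or below 0 except at the right end.

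The clusters differed from each other. Of all 9899 probe sets, beside which the counts here stand, 39.3% lay below both controls and 45.9% above. In the cluster from ZNF101 to ZNF254, all 8 member probe sets lay below both controls, with medians of −0.29 against mutated PNA and −0.36 against untreated. Of these 8, 5 are _x_at and 1 is _s_at, so they may read each other's transcripts, and clusters differ in this: 3 of 9 are _x_at in the cluster from ZNF577 to ZNF331 and 3 of 20 in the one from ZNF787 to ZNF446. The part of this in the differences between clusters was not tested. The first cluster holds ZNF91 and ZNF93, which silence primate retroelements of the SVA and LINE families. ZNF91 lay at −0.39 to untreated and −0.30 to mutated PNA. ZNF93 was read by 2 probe sets, at 505, 492 and 473 and at 430, 411 and 340, so its log2 differences to mutated PNA were −0.06 and −0.27. All 9 probe sets of the cluster from ZNF577 to ZNF331 also lay below both controls, with medians of −0.42 and −0.32 and a range to the nearer control from −1.08 for ZNF665 to −0.02. The cluster from ZNF627 to ZNF791 had 3 of 3 below. The cluster at the end of the chromosome, from ZNF787 to ZNF446, was different: of 20 probe sets 4 lay below and 8 above both controls, with medians of 0.06 and 0.06. In the cluster from ZNF283 to ZNF180, 4 of 9 lay below and 2 above. There ZNF180 and ZNF112 lay at −0.91 and −0.90 to the nearer control, and ZNF223 at 0.25. The other clusters held 1 to 3 member probe sets each, among them ZNF426, ZNF302 and ZNF580.

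Few members were far from the controls, and all that were at least 2-fold lower lay on chromosome 19. At least 2-fold below both controls were 4 of 169 members, against 1.63% of all 9899 probe sets, and all 4 were among the 66 of chromosome 19 (6.06%). Against mutated PNA alone 5 members were at least 2-fold lower, beside 2.72% of all probe sets, and against untreated 6, beside 2.78%. All of these were on chromosome 19 as well. At least 2-fold above both controls were 5 members, against 1.18% of all probe sets, 1 on chromosome 19 and 4 elsewhere. Of those 4, ZNF205 passed the minimum only through its anti-MYCN PNA value, and with the minimum set on the control arrays 4 members were above and 6 below. Against mutated PNA alone 5 were at least 2-fold higher (2.75% of all) and against untreated 6 (3.02% of all). Between the controls no member reached 2-fold, where 0.364% of all probe sets were at least 2-fold higher in mutated PNA and 0.465% lower. Against the range that held 95% of control differences in 10 equal classes of signal, 16 members lay below both controls and 6 above. Of all probe sets, 11.2% and 10.4% did.

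ZNF426 lay furthest below. Its signal was 88.7 with anti-MYCN PNA, against 268 untreated and 243 with mutated PNA, a log2 difference of −1.59 and −1.45. ZNF302 read 576, 583 and 265, so the controls nearly coincided and the anti-MYCN PNA value was lower by 1.12 or more on the log2 scale. The promoters of both are shown because they are the lowest members and hold no copy of the longer stretch: ZNF426 at chr19:9538596-9538895 on the minus strand, and ZNF302 at chr19:34677428-34677727 on the plus strand. In them capitals mark the shorter motif CCGGAAG or its reverse complement CTTCCGG, a form of the site bound by ETS factors. This exact form was found in ZNF302 and was not found in ZNF426.
ZNF426: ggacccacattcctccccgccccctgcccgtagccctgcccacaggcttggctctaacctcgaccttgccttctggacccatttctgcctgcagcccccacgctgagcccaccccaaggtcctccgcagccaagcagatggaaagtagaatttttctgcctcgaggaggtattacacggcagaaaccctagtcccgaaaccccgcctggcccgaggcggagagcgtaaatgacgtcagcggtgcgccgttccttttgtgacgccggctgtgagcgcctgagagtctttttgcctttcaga
ZNF302: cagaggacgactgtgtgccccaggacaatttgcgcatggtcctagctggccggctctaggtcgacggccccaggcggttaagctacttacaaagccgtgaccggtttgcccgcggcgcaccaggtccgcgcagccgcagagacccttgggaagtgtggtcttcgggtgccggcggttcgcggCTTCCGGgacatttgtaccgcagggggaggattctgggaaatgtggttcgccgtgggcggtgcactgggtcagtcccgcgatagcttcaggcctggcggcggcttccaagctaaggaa

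ZNF665 read 484, 443 and 210 through an _x_at probe set, and ZNF468, in the same cluster, read 286, 299 and 138. Both were at least 2-fold lower than each control. ZNF85 read 277, 310 and 146 and was 2-fold below mutated PNA only, by −1.08, with −0.92 to untreated. ZNF180 read 270, 226 and 120, and ZNF112 read 259, 234 and 125. These 2 were 2-fold below untreated only, by −1.17 and −1.05. The 7 lowest members were therefore all on chromosome 19, although that chromosome supplied 66 of 169. Among the 7, ZNF665 and ZNF85 were read by _x_at and ZNF302, ZNF180 and ZNF112 by _s_at probe sets. Only ZNF426 and ZNF468 were read by neither kind. The part of this in their low values was not tested. ZNF267, on chromosome 16, read 262, 236 and 138, and the pseudogene ZNF271P on chromosome 18 read 452, 460 and 267. ZNF43 read 347, 327 and 198. ZNF24, a SCAN zinc finger gene on chromosome 18, read 687, 692 and 439 by 1 of its 3 probe sets. Its others were at −0.15 and −0.21 to the nearer control. ZNF292, on chromosome 6, read 224, 269 and 137 by 1 probe set, within the control range at that signal. Another of its probe sets read 921, 945 and 1031 and lay above both controls.

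The 12 probe sets furthest above both controls include ZNF580 and ZNF574 of chromosome 19. Another 4, those of ZNF205, ZNF839 (2) and ZNF74 on other chromosomes, had both controls below the signal minimum and passed it through their anti-MYCN PNA value, so nothing is read from how the 12 fall by chromosome. ZNF580 had a signal of 723 with anti-MYCN PNA, against 299 untreated and 219 with mutated PNA, differences of 1.28 and 1.72. ZNF574, outside the clusters, read 220, 215 and 351. ZNF580 belongs to a cluster of 6 zinc finger genes, from ZNF579 to ZNF580, in which it was the only member. ZNF335, part of a histone methyltransferase complex needed by neural progenitors, read 219, 190 and 467. ZNF692 read 165, 175 and 378. ZNF609, whose circular RNA has been linked to myoblast proliferation, read 125, 132 and 290 by 1 probe set and 158, 226 and 180 by another, so its 2 probe sets did not share a direction against mutated PNA. ZNF205 read 86.6, 77.1 and 193. ZNF839 was above both controls by 0.90 and 0.57 with 2 probe sets, within the control range at that signal. The remaining ones were ZNF202 at 291, 296 and 437, ZNF710 at 156, 122 and 225, ZNF74 at 103, 107 and 149 and the pseudogene ZNF767P at 163, 222 and 308. All of these remaining ones were also within the control range at their signal.

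The promoter of ZNF580, at chr19:55640752-55641051 on the plus strand, is shown as that of the highest member, and it also holds CTTCCGG, in capitals.
ZNF580: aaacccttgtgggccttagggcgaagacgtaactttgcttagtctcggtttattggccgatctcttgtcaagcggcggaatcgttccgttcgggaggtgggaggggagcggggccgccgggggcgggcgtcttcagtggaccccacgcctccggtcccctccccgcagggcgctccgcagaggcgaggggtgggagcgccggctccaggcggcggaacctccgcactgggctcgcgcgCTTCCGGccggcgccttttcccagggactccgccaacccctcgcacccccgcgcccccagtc

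**Figure D4:**
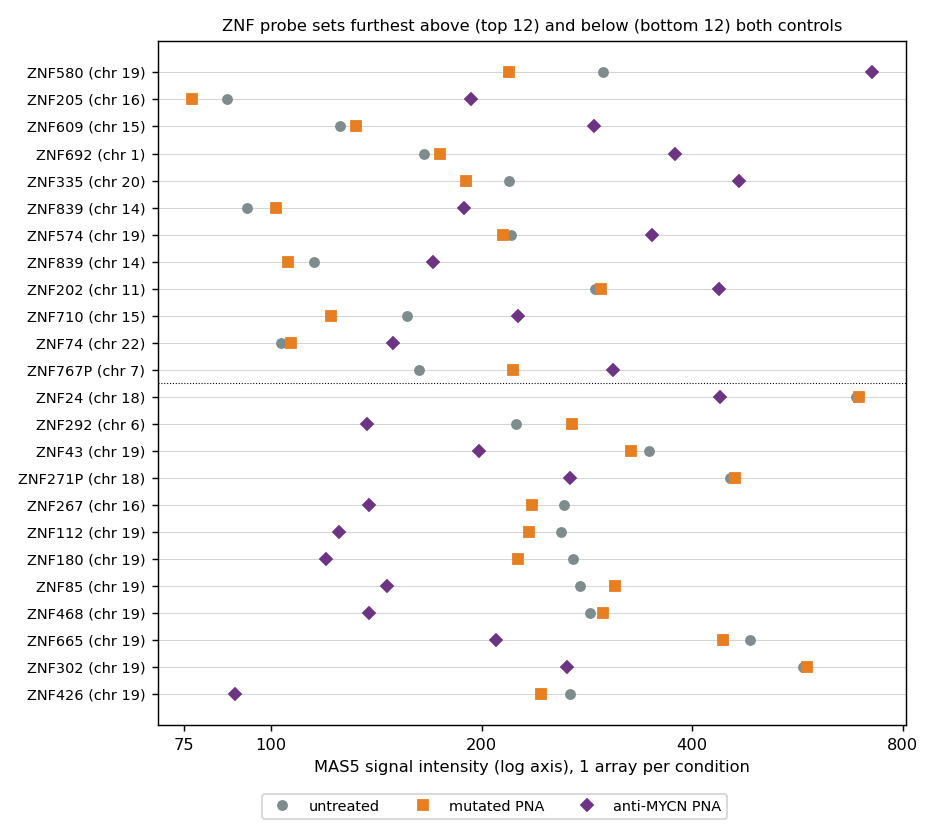
Signal on each of the 3 arrays (log axis, 1 array per condition) for the 12 ZNF probe sets highest above both controls and the 12 lowest below them; ZNF839 appears with 2 probe sets. In each row the anti-MYCN PNA point lies outside both controls, from ZNF580 at 723 against 299 and 219 to ZNF426 at 88.7 against 268 and 243.

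Promoters of the chromosome 19 members were poorer in G and C than those of other genes. A promoter sequence was matched for 122 of the 140 member genes. The 54 on chromosome 19 had a median GC content of 59.8%, with quartiles of 55.4% and 63.7%, and a median of 20.5 CpG dinucleotides. The 68 on other chromosomes had 63.5% and 25.5, the 218 other genes of chromosome 19 with like signal 66.3% and 27, and all 5688 measured genes with a sequence 65.7% and 27. Over all probe sets the log2 difference of anti-MYCN PNA to mutated PNA was higher with higher promoter GC, from a median of −0.04 in the lowest of 5 equal classes to 0.16 in the highest. Other genes of chromosome 19 stood at 0.36 in the lowest class and 0.44 in the highest. Chromosome 19 members stood at −0.27, −0.19 and −0.26 in the 3 lowest classes, which held 53 of their 59 probe sets with a sequence. Against untreated these medians were −0.32, −0.04 and −0.13, and between the controls 0.03, 0.11 and −0.10. In the 2 highest classes the members' medians against mutated PNA were above 0, at 0.17 over 4 and 0.05 over 2. In each of the 3 lowest classes the members' median lay below 0 and that of other genes of the chromosome above 0. With the median of each GC class subtracted from every probe set, an alternative added after the data were seen, the chromosome 19 gap was −0.62 against mutated PNA and −0.52 against untreated.

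**Figure D5:**
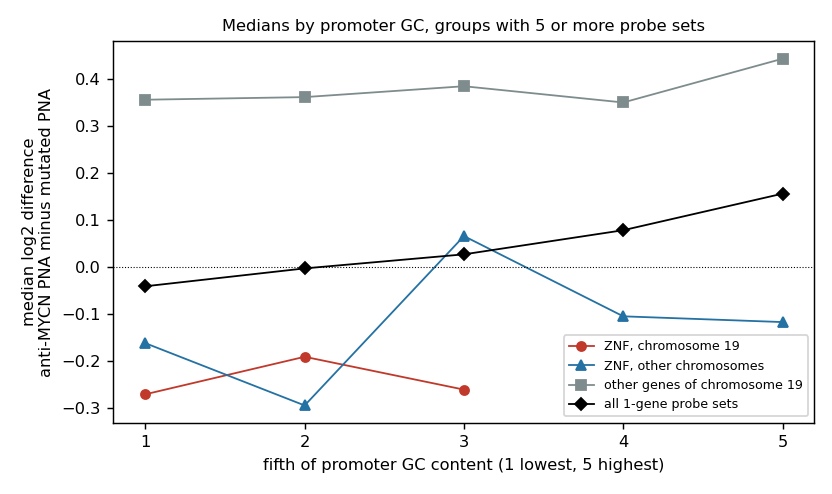
Median log2 of anti-MYCN PNA minus mutated PNA in 5 equal classes of promoter GC content, for groups with 5 or more probe sets in a class. All probe sets run from −0.04 to 0.16, other genes of chromosome 19 stay between 0.35 and 0.44, and the ZNF genes of chromosome 19 lie between −0.27 and −0.19 in the 3 lowest classes; their 4 and 2 probe sets in the 2 highest, at 0.17 and 0.05, are not drawn. Those of other chromosomes lie between −0.29 and 0.07.

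The ETS motif CCGGAAG was searched on both strands and is contained in the longer stretch above. It was found in 27 of 54 chromosome 19 member promoters (50%) and 24 of 68 on other chromosomes (35.3%). It lay in 16.1% of those of other chromosome 19 genes with like signal, in 20.8% of all measured genes and in 10.7% of all promoters. Members with it had a median of −0.15 against mutated PNA and −0.18 against untreated over 58 probe sets, and members without it −0.13 and −0.05 over 91. On chromosome 19 alone the order differed between the controls: with it −0.11 and −0.21 over 28, without it −0.21 and −0.10 over 31. The E-box CACGTG, which MYC-family proteins bind and which reads the same on both strands, was found in 3 of the 54 (5.56%) and 8 of the 68 (11.8%), against 11.1% of all measured genes and 7.44% of all promoters. Of member probe sets, 16 with an E-box had medians of −0.14 and −0.07, and 133 without had −0.13 and −0.11. The ETS motif was picked after the values were seen, and a match describes only the letters of the window.

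Of the 8 member probe sets with the highest mean signal, 1 of the 2 for ZNF207 lay below both controls by more than the control range at that signal, and the other 7 lay within theirs. ZNF207, a microtubule-binding protein that loads the checkpoint protein BUB3, read 5855, 5973 and 6107 by an _s_at probe set. By an _x_at probe set it read 4241, 4274 and 3479, a log2 difference of −0.29 to untreated and −0.30 to mutated PNA, just past the control range of 0.28. ZNF146, made almost wholly of fingers, read 3212, 2612 and 2047, with differences of −0.65 and −0.35. ZNF706, ZNF106, ZNF512B and ZNF330 lay between −0.18 and 0.39 of each control. ZNF721 read 1248, 1773 and 1118 through an _x_at probe set, where mutated PNA stood apart from both other arrays.

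Between the controls the members differed less, and so did all probe sets. Over all 9899 the quartiles were −0.15 and 0.14 between the controls, and −0.30 and 0.37 for anti-MYCN PNA to mutated PNA. The median size of the log2 difference was 0.17 over the 169 members, against 0.33 for anti-MYCN PNA to mutated PNA. ZNF593, linked to ribosome assembly, was the furthest below untreated in mutated PNA at 752 against 1333, and read 1251 in anti-MYCN PNA cells. ZNF473, a part of the machinery that processes histone messenger RNA, read 404, 251 and 492, and ZNF274, which recruits SETDB1 to the ends of other ZNF genes, read 616, 411 and 574. ZNF230 and ZNF222 were lower in mutated PNA by 0.58 and 0.57 in size on the log2 scale. On the higher side were ZNF444 at 128, 237 and 142, ZNF250 at 171, 255 and 309, ZNF652 at 129, 186 and 107, the second ZNF609 probe set and ZNF721. For ZNF444 another probe set read 458, 319 and 628, so the 2 probe sets lay on opposite sides of mutated PNA, while both lay above untreated in anti-MYCN PNA cells. Of 28 member genes with 2 or more probe sets, 13 had probe sets on both sides of 0 against mutated PNA, 10 had all below and 5 all above. In 3 of them (ZNF292, ZNF444 and ZNF609) the probe sets lay over 1 log2 unit apart, and the median range was 0.32.

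KRAB corepressors and heterochromatin factors stood on both sides of the controls, in shares near those of all genes. Of 29 genes in that list 24 are on the array and 21 passed the signal minimum, 9 above both controls and 9 below, beside 47.9% and 37.6% of all genes, with a median of −0.11 to mutated PNA and 0.07 to untreated. All 6745 genes, by the brightest probe set of each, had medians of 0.06 and 0.06. TRIM28, the KRAB corepressor, itself a gene of chromosome 19, read 3137, 3022 and 4371, and SETDB1 read 315, 306 and 498. EHMT2, a histone methyltransferase, read 344, 370 and 604. On the lower side the heterochromatin protein CBX3 read 6121, 6530 and 3890. MORC3, an ATPase of silenced chromatin, read 430, 408 and 191, the only member of the list at least 2-fold from both controls, where 1.26% of genes were lower and 1.16% higher. At least 1.5-fold below both were 4 (CBX3, MORC2, MORC3 and the kinase gene RPS6KA5) and above both 2 (SETDB1 and EHMT2), against 7.35% and 8.27% of genes. Besides TRIM28, the others lay within 1.5-fold of at least 1 control: CHD4, DAXX, CHD3, DNMT1, MPHOSPH8 and SUV39H1 above both controls by 0.53, 0.46, 0.28, 0.14, 0.13 and 0.09, TASOR, HDAC2, PPP1CC, CBX5 and ATF7IP below both by −0.51, −0.40, −0.26, −0.17 and −0.16, and CBX1, HDAC1 and ATRX between them. MYCN read 3313, 2804 and 2202.

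Zinc finger genes with other names lay on both sides of the controls, in shares near those of all genes. Of 46 genes on the array whose symbols start with ZFP, ZKSCAN, ZSCAN or ZBTB, 29 passed the minimum. Of these, 13 lay above and 10 below both controls, beside 47.9% and 37.6% of all genes. Their medians were 0.02 to mutated PNA and 0.05 to untreated. None was 2-fold apart from both controls, though ZKSCAN3 at 141, 98.7 and 210 was 2-fold above mutated PNA alone. At least 1.5-fold above both were 2 and below both 2, against 8.27% and 7.35% of all genes. The 140 ZNF genes, by brightest probe set, had medians of −0.09 and −0.06. Of them 67 lay below (47.9%) and 48 above both controls (34.3%), against 37.6% and 47.9% of all genes. The 60 on chromosome 19 had medians of −0.15 and −0.13, with 34 below (56.7%) and 16 above (26.7%). The 80 on other chromosomes had −0.04 and 0.01, with 33 below (41.25%) and 32 above (40%), nearer to all genes. Most of the 29 have a BTB or SCAN domain in place of or beside KRAB. ZSCAN18 read 197, 224 and 389, and ZBTB38, which binds methylated DNA, read 194, 158 and 99.0.

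The signal minimum decided which ZNF genes were described. On chromosome 19, 66 of 121 ZNF probe sets passed (54.5%), and on other chromosomes 103 of 179 (57.5%). Of the 131 that did not pass, 24 were below the floor of 23.4 on all 3 arrays. Just above the minimum lay ZNF500, ZNF205 and ZNF74 at mean signals of 117, 119 and 120, and just below it ZNF669, ZNF280A and ZNF667 at 115, 112 and 112. Of the members 6 read below the minimum on the anti-MYCN PNA array, ZNF426 among them.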

How the data were processed

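Total RNA of RH30 cells was measured on expression arrays, 1 per condition. Linear intensities were deposited for every probe set; the submitters' processing notes name MAS5 and GCOS, and versions are not given in the sources used here. MAS5 scales each array by 1 factor, so differences in the shape of the signal distribution remain. Each array was brought to the same 2% trimmed mean (factors of 1.00), signals below 23.4, the 25th percentile over all arrays, were raised to that floor, and the deposited values were put on the log2 scale. Probe sets naming 1 gene with a mean signal of at least 117, the pooled median, were kept, 9899 in all; 1043 probe sets name several genes and 2108 none. Gene identifiers of a platform annotation of GEO were matched to the RefSeq gene table of GRCh38.p14 for 19052 probe sets, which gave symbols, chromosomes and gene order, and no coordinates of that table are reported. Promoter sequences came from RefSeq on GRCh38.p14.

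Differences are between single arrays, without p-values. A probe set counts as called when at least 2-fold apart, and as past both controls when it is that far from the nearer control, on the same side of each; the share of all 9899 probe sets called is given beside each count. Genes named are the 12 furthest each way from both controls, the 5 furthest each way between the controls, the 8 brightest, 3 on either side of the minimum, genes whose probe sets differ by over 1 log2 unit, the measured corepressor list and MYCN; the others were chosen for known roles or place after their values were seen. Members and lists were chosen with earlier results of these data known. Alternatives were other scalings, filters, floors, folds, probe set choices and symbols, and subtraction of the median of the signal class or promoter GC class. A shorter form of the shared promoter stretch was searched first and was replaced by the longest one the sequences have in common. The calculation was tested on simulated data. Protein features were not analysed here. Figures were drawn with matplotlib 3.10.9, and values were computed in Python 3.11.15 with pandas 2.3.3 and numpy 2.4.6.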

Additional observations from a re-analysis of the deposited data

How the results depend on the processing

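No paired analysis was possible because each condition has 1 array. Of 299 values under alternatives, 245 stayed within 0.1 log2 for a median or 1.5 times for a count, whatever the sign of a median near 0, and 54 moved by more. The chromosome 19 gap between ZNF and other genes kept its sign in 15 of 15 alternatives, from −0.67 to −0.47 against mutated PNA and −0.63 to −0.48 against untreated. Some alternatives could change little, so these counts overstate how stable the values are. The deposited signals differ by scaling factors of 1.00, the platform symbols changed 0 ZNF symbols, and without the floor the values were the same. Each of these kept 20 of 20 values within the limits above. Counts of members at 2-fold rested on few probe sets and followed the settings. Median scaling gave 1 above and 7 below both controls, 2 higher and 12 lower against mutated PNA, 2 higher against untreated, and medians of −0.33 and −0.30 on chromosome 19 and −0.28 and −0.25 elsewhere. Quantile normalization gave 7 below both controls and 8 lower against mutated PNA. Subtracting the median of the signal class gave 2 above and 7 below both, 8 lower against mutated PNA and 3 higher against untreated. With no filter there were 13 above and 12 below both, 17 higher and 16 lower against mutated PNA, 20 and 16 against untreated, and 8 and 6 between the controls; the median of members elsewhere was 0 and the chromosome 19 gap −0.47 against mutated PNA. A minimum at the 75th percentile left 0 above, 0 below and 0 in either comparison with a control, with a chromosome 19 median of −0.27. A pseudocount left 3 lower against mutated PNA. Without _x_at and _s_at probe sets there were 3 above and 2 below both, 3 higher and 2 lower against mutated PNA and 2 lower against untreated; against mutated PNA the chromosome 19 median was −0.016, its difference from members elsewhere 0.0701 and its gap −0.53. At 1.5-fold there were 17 below both, 15 higher and 23 lower against mutated PNA, 11 and 21 against untreated, and 1 and 2 between the controls. At 3-fold there were 0 above and 0 below both, 1 higher and 0 lower against mutated PNA, and 0 and 1 against untreated. Beyond the fewer or more probe sets and folds admitted, the cause was not tested. The median over the probe sets of a gene, the brightest probe set, no floor, the deposited signals, a filter on the controls, the platform symbols and promoter GC moved none of the values by more than that, but the filter on the controls gave 6 below both controls, promoter GC 3, and the brightest probe set turned the median of members elsewhere against untreated to 0.01. Single arrays and signals near the floor limit what can be told.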
